A study of Mus musculus with 11 samples.

Results

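Hedgehog signalling in mouse colon after imatinib was followed through 25 probe sets, each mapped by the platform annotation to 1 member symbol alone. They stood for 10 of the 18193 genes tested, the ligands Ihh and Shh, the receptors and co-receptors Ptch1, Smo, Gas1, Boc and Hhip, and the transcription factors Gli1, Gli2 and Gli3. Total RNA from the colon of adult C57BL/6 mice was hybridised to 11 Affymetrix arrays. Of these, 4 came from mice given imatinib for 3 h, 4 from mice given it for 12 h, and 3 from control mice before imatinib. Imatinib blocks several tyrosine kinases, among them Abl, Kit and the receptors for PDGF, and the study's title places the arrays in work on EphB and Abl signalling in intestinal tumours. The labels give no dose, route, vehicle, sex or hour of harvest, and no control per time point was analysed here, so the drug, its administration and the time of day cannot be told apart. Nor do they say that each array came from a separate mouse, so a p-value measures only the spread between these samples.

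Hedgehog proteins are secreted signals. They bind the receptor Ptch1, which otherwise holds the membrane protein Smo inactive, and active Smo lets the Gli transcription factors switch on target genes. Ptch1, Hhip and Gli1 are themselves targets in many tissues, so their transcripts are often read as a measure of pathway output. In the adult gut the ligands, chiefly Ihh, come from the epithelium, while the receptors and Gli factors are found mainly in the mesenchyme beneath it, where Bmp4 and the forkhead genes Foxf1 and Foxf2 are among the known targets.

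The deposited values were linear signals with the same trimmed mean on every array, and array medians lay between 16.8 and 23.9. They were compared as log2(signal + 16) with limma, using 1 probe set a gene, and p-values were adjusted by Benjamini-Hochberg over all 18193 genes. The arrays differed in transcripts of the exocrine pancreas, an organ outside the colon. The mean log2 level of 6 measured acinar markers lay between 11.42 and 13.31 on 5 arrays (3 h replicate 3, 12 h replicates 1, 3 and 4, control replicate 1) and between 5.51 and 8.04 on the other 6. The called results, and those that moved most, are therefore also given without those 5 arrays, which leaves 3 arrays at 3 h, 1 at 12 h and 2 controls. The epithelial marker Epcam had signals of 4187 to 6023 over the 11 arrays.

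The comparison of 3 h with control asked which hedgehog genes differed soon after imatinib. Of the 10 genes, 3 fell and none rose. These were Ihh, the main hedgehog ligand of the colonic epithelium, Ptch1, the hedgehog receptor, and Gas1, a cell surface co-receptor that helps ligand reach Ptch1. Ihh and Ptch1 were each close to 2-fold lower and Gas1 was 2.9-fold lower. Over all genes tested 2.54% passed in either direction and 1.1% passed as lower. In these 3 of the 10 the arrays of both groups did not overlap, which was true of 15.3% of all genes. The 10 genes were chosen with earlier results of these data known, so these shares only describe them.

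Ihh had signals of 117.8, 96.8, 119.1 and 110.5 on the 3 h arrays, against 292.4, 230.5 and 203.3 on the control arrays. Every 3 h array lay below every control. The means were 111 ± 10.2 (SD, n = 4) at 3 h and 242 ± 45.7 (SD, n = 3) in control, and the log2 change was -1.01 ± 0.16 (SE; limma adjusted p = 0.00766), or 2.02-fold lower. In a bulk sample of this kind, fewer cells of a type and less RNA per cell cannot be told apart. Markers of the colon epithelium, from which Ihh comes, were therefore read beside it. None of 8 passed the limma test at 3 h and none had an unadjusted p under 0.05. Their median log2 change was -0.07, and their summed signal was 36412 to 44675 at 3 h and 40045 to 47560 in control. Posterior Hox genes, which mark distal gut, had summed signals of 628 to 1040 at 3 h and 1423 to 1954 in control. The part of epithelial content or of position along the colon in the Ihh result was not tested.

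Ptch1 had signals of 149.5, 171.3, 175.3 and 183.3 on the 3 h arrays, against 373.5, 313.5 and 348.1 on the control arrays. The groups were far apart relative to their spread, with means of 170 ± 14.5 (SD, n = 4) at 3 h and 345 ± 30.1 (SD, n = 3) in control. The log2 change was -0.96 ± 0.12 (SE; limma adjusted p = 0.00224), or 1.94-fold lower. This rests on the brightest of 3 Ptch1 probe sets. The other 2 had mean signals no higher than 13.9 in any group, below the median of every array, and log2 changes of 0.00 and -0.16, and with the mean of the 3 probe sets in place of the brightest the call was lost (log2 change -0.37, limma adjusted p = 0.104).

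Gas1 had signals of 92.8, 176, 124.1 and 141.1 on the 3 h arrays, against 318.3, 520.4 and 411.7 on the control arrays. The groups did not overlap, although both were wide, with means of 134 ± 34.7 (SD, n = 4) at 3 h and 417 ± 101 (SD, n = 3) in control. The log2 change was -1.54 ± 0.33 (SE; limma adjusted p = 0.0341). A second Gas1 probe set gave 93.7, 148.9, 113.1 and 80.5 at 3 h, against 362.1, 221.7 and 220.5 in control. It also fell, by 1.18 ± 0.25 (SE) on the log2 scale (limma adjusted p = 0.0439 over 34945 probe sets), whereas the dimmest Gas1 probe set, with means of 3.82 at 3 h and 8.67 in control, had a log2 change of -0.24. The Gas1 call was the least secure of the 3, since leaving out any 3 h array, any control array or 12 h replicate 2 ended it, which makes 8 of 11, with a limma adjusted p of up to 0.134. An offset of 1 also ended it (log2 change -1.64, adjusted p = 0.0828).

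Without the 5 arrays high in pancreatic RNA the log2 changes at 3 h were -0.91 for Ihh, -0.92 for Ptch1 and -1.69 for Gas1. With so few arrays no call was made (limma adjusted p = 0.0569, 0.056 and 0.0578), and 80 genes passed in all against 462 with all arrays. Hhip and Gli2, which were not called, had log2 changes of -0.14 and -0.23 at 3 h, against -0.31 and -0.42 with all arrays. This setting was chosen after seeing the data.

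**Figure D1:**
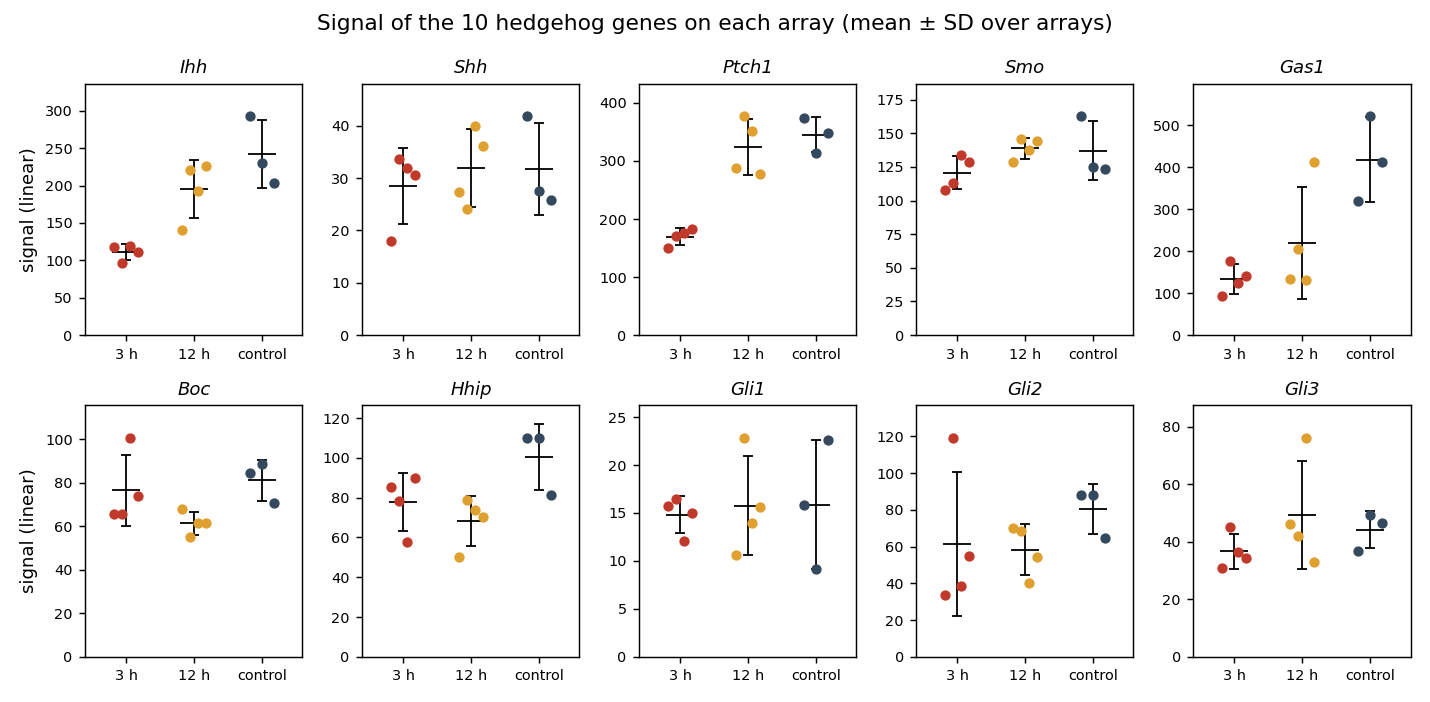
Each panel plots the linear signal of the probe set standing for 1 hedgehog gene (vertical axis from 0) on every array at 3 h, at 12 h and in control, with the mean and SD of each group as a bar. For Ihh and Ptch1 the 3 h points lie below all control points and the 12 h points lie above all 3 h points, while for Gas1 1 of the 4 arrays at 12 h, at 412.8, lies among the controls.

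Promoter windows from RefSeq (GRCm38.p6), running from 250 bases before to 50 bases after the annotated start, were at hand for 7 of the 10 genes. Those of the 3 genes that fell at 3 h are shown, with every CpG dinucleotide in capitals. They lie at chr1:74951623-74951922 (minus strand), chr13:63565686-63565985 (minus strand) and chr13:60177486-60177785 (minus strand).
Ihh: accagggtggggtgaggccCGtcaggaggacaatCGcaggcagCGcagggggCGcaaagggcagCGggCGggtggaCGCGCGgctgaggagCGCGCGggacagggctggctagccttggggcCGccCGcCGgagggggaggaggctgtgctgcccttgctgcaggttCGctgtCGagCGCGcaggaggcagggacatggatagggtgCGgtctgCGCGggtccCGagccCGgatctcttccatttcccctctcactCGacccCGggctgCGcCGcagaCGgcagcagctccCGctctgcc
Ptch1: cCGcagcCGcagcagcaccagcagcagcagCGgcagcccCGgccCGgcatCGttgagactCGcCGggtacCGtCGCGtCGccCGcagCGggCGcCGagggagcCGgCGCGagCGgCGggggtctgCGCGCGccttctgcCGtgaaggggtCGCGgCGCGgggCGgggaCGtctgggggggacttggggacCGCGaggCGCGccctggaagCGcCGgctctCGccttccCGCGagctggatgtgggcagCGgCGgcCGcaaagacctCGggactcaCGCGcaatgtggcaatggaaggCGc
Gas1: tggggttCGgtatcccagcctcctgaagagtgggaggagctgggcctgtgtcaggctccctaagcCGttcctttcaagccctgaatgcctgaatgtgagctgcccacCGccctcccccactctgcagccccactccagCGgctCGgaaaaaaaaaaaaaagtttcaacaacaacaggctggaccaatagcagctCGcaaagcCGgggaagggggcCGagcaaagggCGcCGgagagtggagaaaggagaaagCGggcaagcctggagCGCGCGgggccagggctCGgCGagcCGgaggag
The windows of Ihh, Ptch1 and Gas1 held 30, 47 and 17 CpG dinucleotides, where the median of 27025 windows was 7, and their GC content was 72.7%, 76.3% and 62.3%. The letters GACCACCCA, the consensus bound by Gli proteins, were searched for on both strands, as was TATAAA, the TATA box. None of the 7 hedgehog windows held either. Of all windows 0.244% held GACCACCCA and 14.2% held TATAAA, so an empty window was the usual outcome, and it says only that these letters are not in these 300 bases.

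The remaining 7 hedgehog genes did not pass the test at 3 h, and the data bound rather than exclude a change in them. Smo, the signal transducer that Ptch1 restrains, had signals of 107.5, 112.9, 133.7 and 128.6 at 3 h, against 162.5, 125.1 and 123.5 in control. Its log2 change was -0.16, with a 95% confidence interval of -0.41 to 0.09, so a fall of the size seen in Ptch1 lay outside the interval. A second Smo probe set had a log2 change of -0.15 (-0.37 to 0.08), and all its 3 h arrays (97.1 to 105.5) lay below all controls (109.8 to 123.3). The co-receptor Boc, which like Gas1 presents ligand to Ptch1, had signals of 65.8 to 100.6 at 3 h and 70.7 to 88.5 in control, and a log2 change of -0.08 (-0.38 to 0.21).

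Among the genes that hedgehog signalling induces, Hhip, a ligand-binding antagonist, had signals of 85.6, 78.2, 57.5 and 89.9 at 3 h, against 109.8, 109.9 and 81.1 in control. Its log2 change was -0.31 (95% confidence interval -0.67 to 0.04; limma adjusted p = 0.408), and its other 3 probe sets had changes of -0.27, -0.12 and 0.06. Gli1, the Gli factor most tightly tied to pathway activity, could not be read well on these arrays. Its only probe set had signals of 12.1 to 16.5 at 3 h and 9.2 to 22.6 in control. Of these 3 h and control arrays, all but control replicate 3 had a signal below the array's median, and the log2 change was -0.03 (-0.37 to 0.31).

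Gli2, the main activator of the family, and Gli3, which acts largely as a repressor, were moderately bright. Gli2 had signals of 33.6, 119, 38.6 and 54.7 at 3 h, against 88.3, 87.9 and 64.6 in control. One 3 h array (replicate 2) exceeded all controls and the other 3 lay below them, and the log2 change of -0.42 had an interval of -1.06 to 0.21. A dimmer Gli2 probe set did not overlap between groups, at 3.7 to 16.2 at 3 h and 19.5 to 26.7 in control, with a log2 change of -0.46 (limma adjusted p = 0.23). For Gli3 the log2 change was -0.19 (-0.60 to 0.21), with signals of 30.8 to 45 at 3 h and 36.9 to 49.2 in control. A dimmer Gli3 probe set did not overlap between the groups, at 21.8 to 28.4 at 3 h and 30.4 to 36 in control (log2 change -0.27, limma adjusted p = 0.406).

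The second ligand, Shh, was dim, with signals of 17.9 to 33.6 at 3 h and 25.9 to 41.8 in control, and a log2 change of -0.10 (-0.47 to 0.27). Its other probe set, dimmer still, did not overlap between groups, at 0.7 to 3.3 at 3 h and 5.1 to 12.6 in control, below every array median (log2 change -0.45, limma adjusted p = 0.281). Of the 25 hedgehog probe sets 8 did not overlap between 3 h and control, 4 of them called. The same held for 15.3% of all genes at 1 probe set a gene. The share over all probe sets was not computed, so no excess can be read from the 8. Over the 10 genes all log2 changes at 3 h were below 0, with a median of -0.25. Over all genes 54.2% were below 0 and the median was -0.02.

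**Figure D2:**
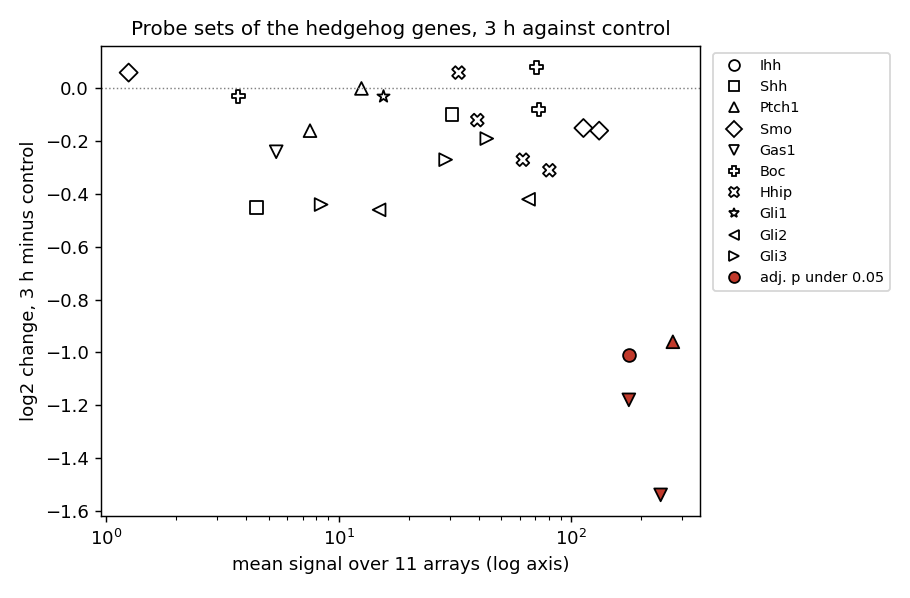
Each symbol is 1 of the 25 probe sets, placed by its mean signal over the 11 arrays (log axis) and its log2 change at 3 h against control, with filled symbols for an adjusted p under 0.05 over 34945 probe sets. The 4 probe sets that passed, 1 of Ihh, 1 of Ptch1 and 2 of Gas1, lie at the lower right, while 9 of the 25 have a mean signal under 24, near or below the array medians.

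The dimness of many probe sets limits what could be seen. Of the 25 probe sets 4 passed at 3 h and all 4 fell, where 1.49% of all 34945 probe sets passed. At 12 h against control none of the 25 passed (0.861% of all), and between 12 h and 3 h 2 did (2.56% of all), those of Ihh and Ptch1. A fold change on this scale understates the change of a dim gene.

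The comparison of 12 h with control asked whether the differences remained. None of the 10 genes passed the limma test at 12 h, where 1.63% of all genes did. For 3 of the 10, Gas1, Boc and Hhip, the unadjusted p was under 0.05, which held for 15.8% of all genes.

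Ihh had signals of 141.2, 221, 193 and 225.8 on the 12 h arrays, against 292.4, 230.5 and 203.3 in control, with 12 h replicate 1 the lowest. The log2 change was -0.29 (95% confidence interval -0.65 to 0.06; limma adjusted p = 0.423). Ptch1 had signals of 287.9, 376.7, 351.1 and 277.5 on the 12 h arrays, which ran from below to above the control arrays at 313.5 to 373.5. Its log2 change was -0.10 (-0.37 to 0.17; limma adjusted p = 0.787).

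Gas1 was uneven at 12 h, with signals of 132.9, 204.5, 130 and 412.8, against 318.3, 520.4 and 411.7 in control. The arrays of replicates 1 to 3 lay below all controls and replicate 4 lay among them, and the second probe set gave 137.2, 157.6, 138.7 and 270.6. The log2 change was -1.0 ± 0.33 (SE; limma adjusted p = 0.164), and without 12 h replicate 4 it was -1.33 and passed (adjusted p = 0.0169). That array also stood apart in smooth muscle markers, with a mean log2 level of 10.65 over 8 markers, against 9.97 to 10.13 on the other 12 h arrays and 10.61 to 10.87 in control. At 3 h the same markers were at 10.51 to 11.02, while Gas1 had signals of 92.8 to 176. Among the 12 h arrays replicate 4 also had the highest summed signal of fibroblast (7885.7) and fat markers (705.6), and the lowest of mitotic markers (518.5). The part of muscle or other cell content in the Gas1 values was not tested.

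Boc and Hhip were lower at 12 h without passing the test. Boc had signals of 68.1, 55.1, 61.4 and 61.4 at 12 h, against 84.6, 88.5 and 70.7 in control, and a log2 change of -0.33 (-0.62 to -0.03; limma adjusted p = 0.26). Hhip had signals of 50.3, 78.8, 73.8 and 70.1 at 12 h, against 109.8, 109.9 and 81.1 in control, and a log2 change of -0.47 (-0.82 to -0.11; limma adjusted p = 0.181). The groups did not overlap for either gene, as held for 13% of all genes, and a second Boc probe set had a log2 change of -0.05. The other Hhip probe sets overlapped between the groups, with log2 changes of -0.26, -0.35 and -0.11. Without the 5 arrays high in pancreatic RNA, which leaves 1 array at 12 h, the log2 changes were -0.42 for Boc, -0.22 for Hhip and -1.12 for Gas1, none of them called. Smooth muscle markers were also lower at 12 h, with an unadjusted p under 0.05 in 7 of 8, a median log2 change of -0.52 and no marker called, and their part in these results was not tested. The log2 changes of Shh, Smo, Gli1, Gli2 and Gli3 at 12 h were 0.01, 0.03, 0.00, -0.38 and 0.08, each with a 95% confidence interval that included 0.

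Between 12 h and 3 h, Ihh and Ptch1 rose and none of the 10 genes fell, where 1.99% of all genes passed as higher and 4.07% in either direction. This comparison tests directly whether the levels at the later time differed from those at the earlier one. The control arrays entered it through the shared estimate of the spread, not through the difference. Ptch1 averaged 323 ± 48.2 at 12 h and 170 ± 14.5 at 3 h (SD, n = 4 each). The log2 change was 0.86 ± 0.12 (SE; limma adjusted p = 0.00171), or 1.82-fold higher, with every 12 h array above every 3 h array. Ihh averaged 195 ± 38.8 at 12 h and 111 ± 10.2 at 3 h (SD, n = 4 each). Its log2 change was 0.72 ± 0.15 (SE; limma adjusted p = 0.0213), or 1.64-fold higher, again with no overlap. Such separation of both groups in 2 of 10 genes compares with 11.6% of all genes.

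The Ihh rise was the less firm. Leaving out 3 h replicate 2, 3 h replicate 4 or 12 h replicate 2 ended its call (limma adjusted p up to 0.0663). For Ptch1 the mean of the 3 probe sets gave 0.36 (adjusted p = 0.0717). Without the 5 arrays high in pancreatic transcripts only 1 array remained at 12 h, whose spread is assumed to be that of the other groups, and the log2 changes were 0.93 for Ihh and 1.10 for Ptch1 (limma adjusted p = 0.153 and 0.104).

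Gas1 had a log2 change of 0.54 between 12 h and 3 h (95% confidence interval -0.13 to 1.21; limma adjusted p = 0.411), so neither a rise nor a level as low as at 3 h could be excluded. For Smo it was 0.18 (-0.05 to 0.42), for Boc -0.24 (-0.51 to 0.03), for Hhip -0.15 (-0.48 to 0.17) and for Gli3 0.28 (-0.10 to 0.65). Shh, Gli1 and Gli2 had log2 changes of 0.11, 0.03 and 0.04.

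**Figure D3:**
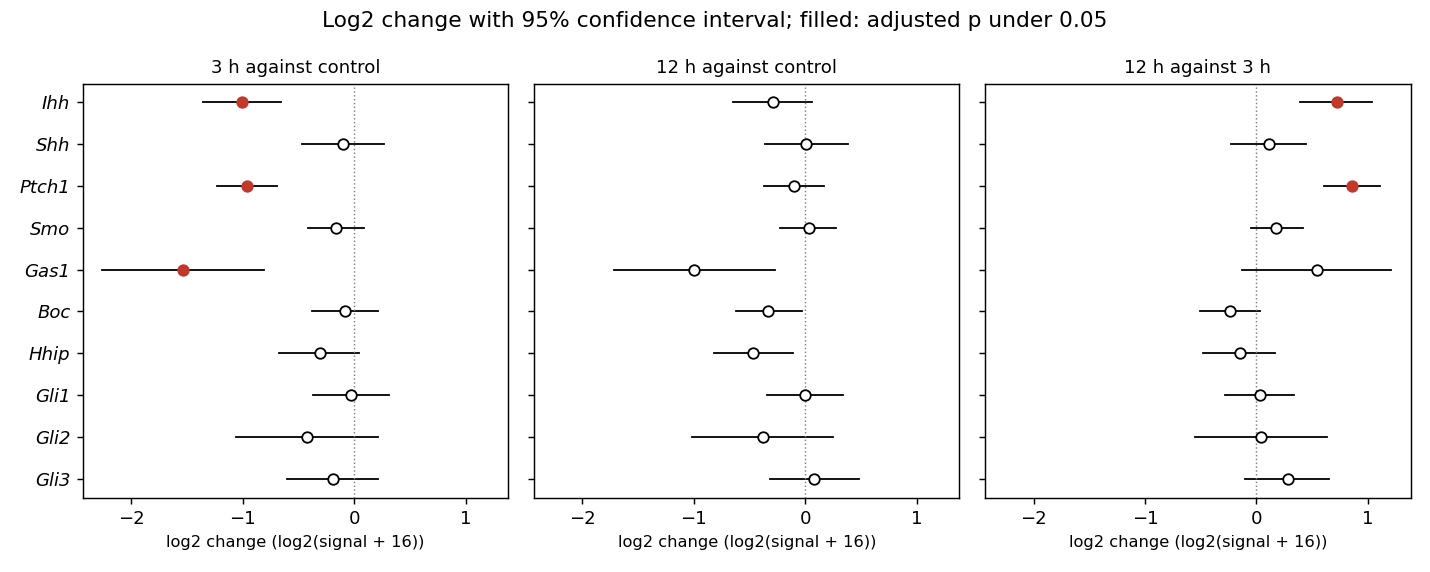
Each panel plots, for 1 comparison, the log2 change of the 10 hedgehog genes (horizontal axis, on the log2(signal + 16) scale) with its 95% confidence interval as a line, and filled symbols where the adjusted p was under 0.05. Ihh, Ptch1 and Gas1 lie to the left of 0 at 3 h, none is filled at 12 h against control, and Ihh and Ptch1 lie to the right of 0 at 12 h against 3 h.

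Beyond the 10 genes, 63 others of the pathway were listed, of which 59 were measured. They comprise genes for release and reception of ligand, transducers between Smo and the Gli factors, and target genes. Of the 59, 1 rose and 3 fell at 3 h, none passed at 12 h against control, and 3 rose and 1 fell between 12 h and 3 h. The 4 called at 3 h make 6.78% of the list, beside 2.54% of all genes, and the list's median log2 change was -0.08. At 12 h against control 0 of 59 passed, beside 1.63% of all genes, and between 12 h and 3 h 6.78% of the list passed, beside 4.07% of all genes. The list was written with earlier results of these data known, so these shares describe it and are no test of the pathway.

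Of 11 measured genes of ligand release and reception 1 passed at 3 h. This was Cdon, which fell. Cdon is another co-receptor, closely related to Boc. Its signals were 92.9, 91.5, 80 and 95.8 at 3 h, against 192.3, 148 and 148.7 in control. All 3 h arrays were below all controls, and the log2 change was -0.75 ± 0.12 (SE; limma adjusted p = 0.00653). At 12 h its signals of 107.5 to 131.9 were still below every control, with a log2 change of -0.39 (limma adjusted p = 0.123). A second, dim Cdon probe set, with means of 10.4 at 3 h and 5.97 in control, had a log2 change of 0.26 at 3 h. With the mean of both probe sets the Cdon call at 3 h was lost (log2 change -0.25, limma adjusted p = 0.331).

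None of 30 measured transducer and cilium genes, among them the Gli inhibitor Sufu and the kinesin Kif7, passed the limma test in any comparison. An unadjusted p under 0.05 was found for 5 of them at 3 h, 4 at 12 h and 9 between 12 h and 3 h, beside 15%, 15.8% and 17.8% of all genes. Their median log2 changes were -0.07, 0.06 and 0.12.

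Of 18 target genes Bmp4 and Foxf2 fell and Foxf1 rose at 3 h. Bmp4, a secreted signal of the gut mesenchyme, had signals of 57.7, 55.7, 61.5 and 51.5 at 3 h, against 171.8, 129.9 and 123.4 in control. The 4 values at 3 h lay within a narrow band below all controls, and the log2 change was -1.11 ± 0.12 (SE; limma adjusted p = 0.000603), or 2.16-fold lower. At 12 h Bmp4 was at 111.2, 123.1, 143.9 and 123, a rise of 0.96 ± 0.11 (SE) on the log2 scale relative to 3 h (limma adjusted p = 0.000697). Its fall at 3 h was also called without the 5 arrays high in pancreatic transcripts (log2 change -1.01, limma adjusted p = 0.0245).

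The forkhead genes Foxf1 and Foxf2, both mesenchymal transcription factors, moved in opposite directions. Foxf2 had signals of 28.8, 29.5, 30 and 32 at 3 h, against 58.8, 44.2 and 48.8 in control (log2 change -0.53 ± 0.10 SE, limma adjusted p = 0.0195). Foxf1 had signals of 361.5, 438, 354 and 303.5 at 3 h, against 181.3, 232.3 and 217.5 in control (0.74 ± 0.13 SE, adjusted p = 0.0111). Neither pair of groups overlapped. Between 12 h and 3 h Foxf2 rose by 0.57 ± 0.09 (SE; limma adjusted p = 0.00619) and Foxf1 fell by 0.60 ± 0.12 (SE; 0.0157). A dimmer Foxf1 probe set had log2 changes of 0.22 at 3 h and -0.39 between 12 h and 3 h, and one of Foxf2, with means under 3, had 0.02 and 0.01. With the mean of a gene's probe sets the calls at 3 h were lost for Foxf1 (log2 change 0.48, limma adjusted p = 0.0682) and Foxf2 (-0.25, 0.239), as was that of Foxf2 between 12 h and 3 h (0.29, 0.103).

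Nkx2-3, a homeobox gene of the gut mesenchyme, passed in 1 comparison. It had signals of 119, 108.3, 122.1 and 113.3 at 12 h, against 85.5, 88.6, 84.3 and 83.6 at 3 h, a rise of 0.37 ± 0.08 (SE; limma adjusted p = 0.0218). With the mean of its probe sets this call was lost (log2 change 0.25, limma adjusted p = 0.211). Several of these smaller calls depended on single arrays. Leaving out 1 array ended the Nkx2-3 call for 5 arrays (3 h replicates 1, 3 and 4, 12 h replicates 1 and 3) and the Foxf2 call at 3 h for 4 (3 h replicates 1, 2 and 3, control replicate 1). For Foxf1 at 3 h 1 array did so, control replicate 1 (limma adjusted p up to 0.0606, 0.096 and 0.0599). Without the 5 arrays high in pancreatic transcripts, the log2 changes at 3 h were -0.59 for Cdon, 0.66 for Foxf1 and -0.44 for Foxf2, none of them called (limma adjusted p = 0.107, 0.205 and 0.21). Between 12 h and 3 h they were then 0.97 for Bmp4, 0.71 for Foxf2, -0.53 for Foxf1 and 0.29 for Nkx2-3, again without a call (limma adjusted p = 0.094, 0.184, 0.421 and 0.518).

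**Figure D4:**
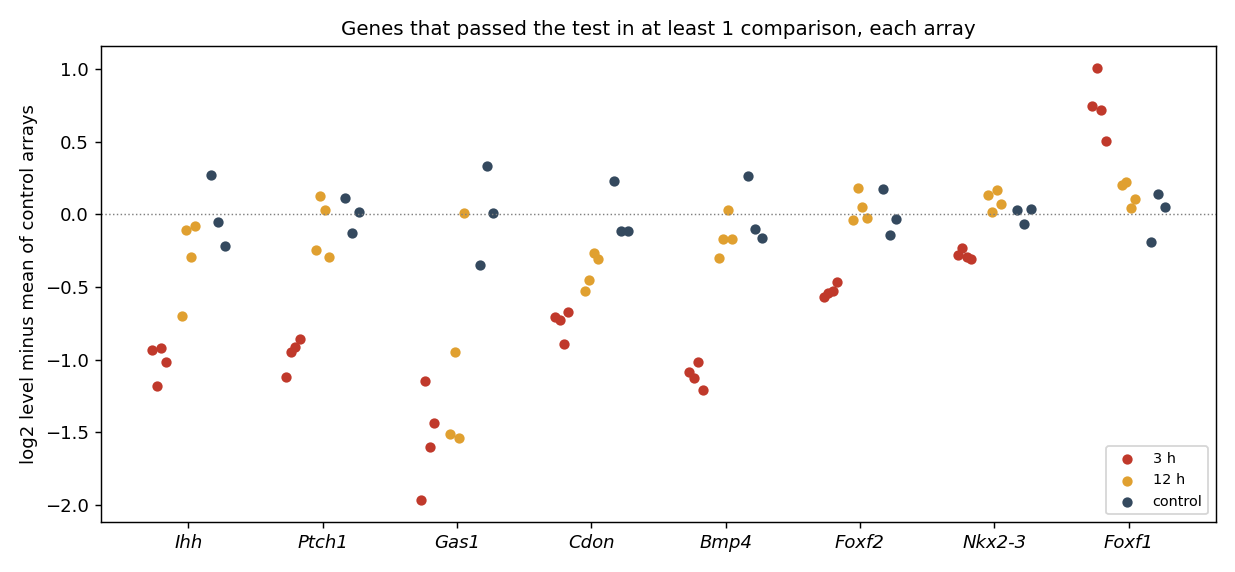
Points show the log2 level of each gene on each array minus the mean of its control arrays (vertical axis), at 3 h, at 12 h and in control, for the 3 hedgehog genes and 5 other pathway genes that passed in at least 1 comparison. At 3 h all genes but Foxf1 lie below 0. At 12 h Ptch1 and Foxf2 lie around the controls. Bmp4 lies mostly at or just below the lowest control and Nkx2-3 mostly above the highest. Neither Bmp4 nor Nkx2-3 passed at 12 h against control (log2 changes -0.15 and 0.10, limma adjusted p = 0.629 and 0.655).

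Among 11805 genes with a mean level of at least that of a signal of 32, those most like each called hedgehog gene were sought by the root mean square difference of centred log2 levels over the 11 arrays. For Ptch1, whose own levels varied by 0.46 around their mean, these were Gucy1a1, a subunit of the nitric oxide receptor (0.14), Bmp4 (0.16), the mesenchymal transcription factor Tcf21 (0.16) and the orphan receptor Mrgprf (0.17). For Ihh, which also varied by 0.46, they were Golph3l (0.11), Mrgprf (0.15), Cnst (0.18) and Bmp4 (0.18). Ihh and Ptch1 themselves differed by 0.22, while Gas1 differed from Ihh by 0.53 and from Ptch1 by 0.61. For Gas1, which varied by 0.75, no gene came as close. The nearest were Etfbkmt (0.37), Tppp (0.40), Fbxo32 (0.42) and the smooth muscle gene Lmod1 (0.44).

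Markers of the cells and gut regions a colon sample can hold moved with some of these results. Of 8 fibroblast and telocyte markers none passed at 3 h, and their summed signal was 9470 to 10837 at 3 h and 9810 to 12801 in control. At 12 h against control 3 of the 8, the matrix genes Col1a2, Col3a1 and Lum, fell. The summed signal of 6957 to 7886 lay below all controls. The first marker of the list, Pdgfra, overlapped, at 196.6 to 333.7 at 12 h and 244.6 to 339.4 in control. The part of fibroblast content in the hedgehog results was not tested. None of 8 smooth muscle markers passed at 3 h or at 12 h against control, and 2 fell between 12 h and 3 h. Their summed signal was 18996 to 27175 at 3 h, 13157 to 20632 at 12 h and 19264 to 23301 in control.

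Posterior Hox genes, whose transcripts mark distal gut, also had their lowest values at 3 h. Of 6, 4 fell at 3 h, none passed at 12 h against control and 4 rose between 12 h and 3 h. Their summed signal was 628 to 1040 at 3 h, 1440 to 1652 at 12 h and 1423 to 1954 in control, so every 3 h array was lower than every other array. Position along the colon and time after imatinib cannot be told apart here. Macrophage markers (1 of 6 fell at 3 h, summed signal 1059 to 1232 at 3 h and 1244 to 1526 in control) and mesenteric fat markers (none of 4 passed, 524 to 865 and 212 to 366) also did not overlap between 3 h and control, and their part in the results was not tested. Interstitial cells of Cajal, neurons and glia, endothelium and squamous epithelium of the anal canal had no marker that passed in any comparison. Of 5 mitotic markers none passed at 3 h and 2 fell at 12 h. Summed signals at 12 h lay below all controls for Cajal cells (1486 to 1812 against 2203 to 3286) and macrophages (1022 to 1116). The same held for mitotic markers (518 to 1149 against 1336 to 1759). Those of neurons and glia, endothelium and squamous epithelium overlapped with control at 12 h. The part of these cells in the results was not tested. The first marker of some lists was dim, as with Krt5 of the squamous list at 3.5 to 21.6 over the arrays, near or below the array medians. Whether such cells were present cannot be read from these signals.

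**Figure D5:**
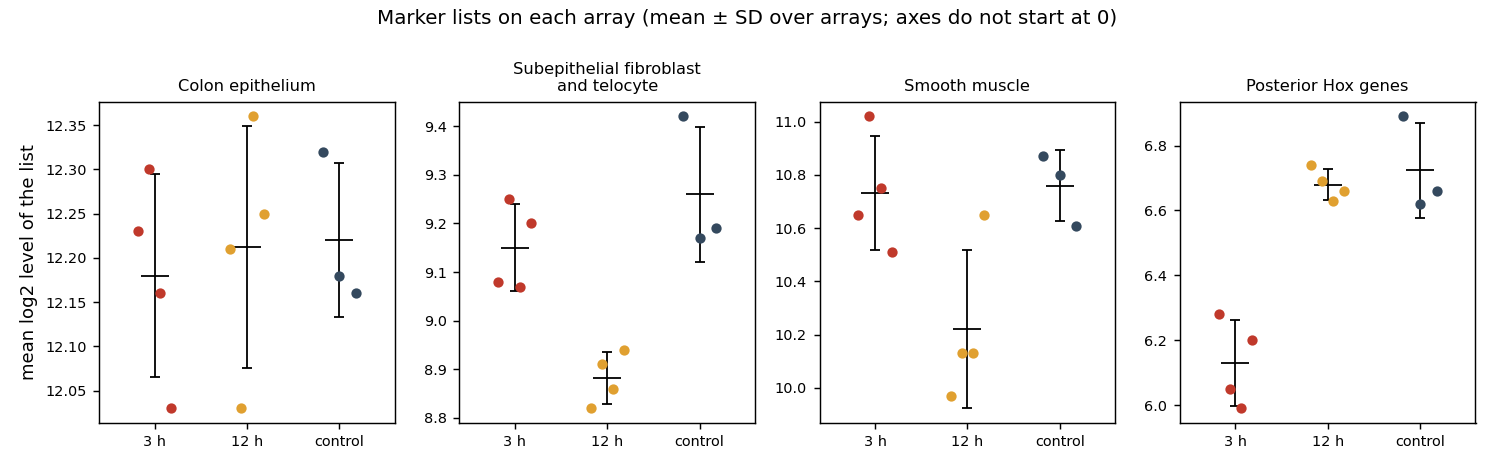
Each panel plots the mean log2 level of 1 marker list on every array (vertical axis, which does not start at 0), with the mean and SD of each group as a bar, at 3 h, at 12 h and in control. Epithelial markers overlap between all groups, fibroblast markers are lower on the 12 h arrays, and posterior Hox genes are lower on the 3 h arrays.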

How the data were processed

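Total RNA was measured on 11 arrays (3 h n = 4, 12 h n = 4, control n = 3), grouped by the sample titles. The authors deposited a linear intensity for every probe set. With 2% trimmed at each end, the mean is 100.0 on every array, the mark of a single scaling factor, while software and summary method were not stated in the labels. The platform annotation gives 1 gene for 34945 of 45101 probe sets. Entrez numbers, 99.4% of them found in RefSeq (GRCm38.p6), supplied current symbols. Where a gene had several probe sets, the one of highest mean log2 level stood for it (18193 genes).

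Signals were taken as log2(signal + 16) and fitted with limma 3.58.1 in R 4.3.3 on all 11 arrays (8 residual and 3.99 prior degrees of freedom), with 2-sided tests called at an adjusted p under 0.05. Intervals are 95% confidence intervals of that fit. A fit over every probe set gave the values of single probe sets. The number of arrays limits the precision. The procedure was tested on simulated data. All 10 genes are named. Other pathway genes are named when called, as are the 4 genes most like each called member. Members and lists were chosen with earlier results of these data known. Alternatives covered a replicate block, scaling, offset, level filter, probe sets, arrays in the fit, weights, prior, threshold and leaving out each array, and, added after seeing the data, omission of the 5 arrays rich in pancreatic RNA. Figures were drawn with matplotlib 3.10.9.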

Additional observations from a re-analysis of the deposited data

Results flagged for a closer look

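Of the 10 hedgehog genes and the 59 other measured pathway genes, 6 changed differently at 12 h than at 3 h, by the test of 12 h against 3 h. These are the calls already given above, and 4.07% of all genes passed that test. The difference was 0.72 for Ihh, 0.86 for Ptch1, 0.96 for Bmp4, 0.57 for Foxf2, 0.37 for Nkx2-3 and -0.60 for Foxf1 on the log2 scale.

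Single arrays stood apart in 7 of 60 groups of 4 examined, where chance alone gives about 1 in 20, because the gap to the nearest array took up most of the group's range (Dixon's criterion at 95%). On 3 h arrays the lowest value was 17.9 for the brighter Shh probe set (replicate 1), 97.1 for the second Smo probe set (replicate 3) and 18.2 for the dimmest Hhip probe set (replicate 3). It was 3.7 for the dimmer Gli2 probe set (replicate 1) and 1.5 for the dimmest Boc probe set (replicate 4). On 12 h replicate 4 the dim Shh probe set stood high at 11.9 and the dim Gas1 probe set at 12.6.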

How the results depend on the processing

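Ihh and Ptch1 stayed lower at 3 h and higher at 12 h than at 3 h under every alternative run, with changes of -1.12 to -0.80 and -1.02 to -0.37 at 3 h, and Gas1 stayed lower at 3 h (-1.72 to -0.99). With the replicate number as a replicate block, all 3 calls at 3 h were kept, but the Ihh call between 12 h and 3 h was lost (adjusted p = 0.0641, leaving 1 hedgehog gene called there), as were those of Foxf2 at 3 h (0.0751) and Nkx2-3 between 12 h and 3 h (0.067). The labels do not say whether the numbers pair the arrays. Same-numbered arrays had correlations of deviations from -0.21 to 0.31 over 10 pairs, 3 of them over 0.1. Of 11 arrays 5 correlated best with their own number, which does not settle whether they are paired.

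The number of hedgehog genes called was 0 at 3 h and 0 between 12 h and 3 h without the 5 arrays high in pancreatic transcripts. Between 12 h and 3 h it was 1 with the mean of a gene's probe sets and 1 at a threshold of 0.01. Leaving out each array gave 2 to 3 at 3 h, 0 to 1 at 12 h and 1 to 2 between 12 h and 3 h.

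Of all genes, 462 were called at 3 h (261 higher, 201 lower), 297 at 12 h (143, 154) and 741 between 12 h and 3 h. With all array medians made equal these were 382 (254, 128), 253 (159, 94) and 594. The replicate block gave 277, 183 and 466, an offset of 1 gave 229, 81 and 435, thresholds of 0.1 and 0.01 gave 878, 690 and 1275, and 127, 53 and 235. Without the arrays high in pancreatic transcripts they were 80, 8 and 16, from fewer arrays. At 12 h an offset of 64 gave 495, the level filter 636, the 2 groups alone 62 and a trended prior 536. Leaving out each array gave 161 to 520, 64 to 455 and 395 to 758.

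Changes of sign were seen in values that did not pass the test. Most were near 0, but Ihh at 12 h was -0.29 with all arrays. At 3 h Gli1 was 0.02 with array weights and 0.02 without the pancreatic arrays, where Shh was 0.00. At 12 h Shh was -0.03 and Gli1 -0.00 with the replicate block, Gli1 -0.00 with an offset of 64 and Shh -0.01 with array weights. There the mean of a gene's probe sets gave -0.15 for Shh, -0.05 for Gli3, -0.02 for Foxf1 and -0.07 for Nkx2-3, and leaving out the pancreatic arrays gave 0.03 for Ihh, -0.09 for Shh, 0.18 for Ptch1 and -0.14 for Gli3. Between 12 h and 3 h Shh was -0.09 without those arrays. Leaving out each array gave ranges that crossed 0 at 3 h for Shh (-0.19 to 0.04) and Gli1 (-0.19 to 0.12), and at 12 h for Shh (-0.08 to 0.15), Smo (-0.04 to 0.14), Gli1 (-0.16 to 0.15), Gli3 (-0.10 to 0.21) and Foxf2 (-0.03 to 0.13). Between 12 h and 3 h they crossed 0 for Shh (-0.02 to 0.19), Gli1 (-0.07 to 0.11) and Gli2 (-0.14 to 0.35). The cause of these shifts was not tested. Of the 4 genes named as most like Ihh, Ptch1 and Gas1, all 4 were kept under both other scalings, and 3, 2 and 3 with an offset of 1.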
